A study of Mus musculus with 8 samples.

Results

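Cerebellins are small secreted proteins of the C1q family that sit in the synaptic cleft. On one side they bind neurexins, adhesion proteins of the presynaptic membrane, and on the other they bind delta receptors, which belong to the ionotropic glutamate receptor family but act mainly as adhesion and signalling proteins. In the cerebellum, Cbln1 released by granule neurons is known to be needed for the synapses between parallel fibers and Purkinje neurons. Each neurexin gene makes long and short forms from separate start sites, and the short forms lack most of the extracellular part.

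Here 7 genes of this ligand and receptor system were followed among 32285 features in single-nucleus RNA-seq data of the mouse paraflocculus/flocculus (PF/F), lateral lobules of the cerebellum. They were taken by gene symbol and comprised the ligands Cbln1, Cbln2, Cbln3 and Cbln4, the delta receptor gene Grid1 and the neurexin genes Nrxn2 and Nrxn3. The study compared wild-type (WT) littermates with Tbx1+/- mice, which lack 1 copy of the transcription factor gene Tbx1 in all cells, at postnatal day 5.5, and no agent was given. Each genotype had 2 PF/F libraries, 1 from each of 2 batches, and each library pooled 5 mice. The replicate number in the labels was read as the batch, which the labels do not state. The petrous temporal bone (PTB) of the same ages and genotypes gave another 4 libraries, so the series held 8 libraries. The libraries, not nuclei or mice, were therefore the replicates.

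The 4 PF/F libraries held 48237 nuclei with an annotated cell type and 174303641 unique molecular identifiers (UMIs) in them, with a median of 2610 to 3503 UMIs per nucleus. Of 16 annotated types, 14 had at least 20 nuclei in every library. Endothelial nuclei and pericytes did not, and they are left out below unless named. Levels and shares are described for 12 of the 14 types, while counts over all pairs of gene and type and correlations cover the 14. Levels are UMIs of a gene per 1000000 UMIs summed over the nuclei of a type in a library (CPM), given as mean ± SD over the 4 libraries. UMIs were counted from transcript ends in intron mode and not per length, so levels are compared between types for 1 gene and not between genes. Types were defined from the expression of the same nuclei, and levels by type are therefore a description without a test. Defining markers were checked for the labelled types. The summed level of 8 granule lineage markers was 1612 CPM in granule neuron progenitors and 1423 CPM in differentiated granule neurons. In astroglia it was 1000 CPM. Calb1 was at 999 CPM in Purkinje neurons, Pax2 at 571 CPM in Diff.GABA.interneuron, and Sox10 at 513 CPM in oligodendrocytes, where Pdgfra of their precursors was at 484 CPM. Some labels went less well with their markers. The type RL.early (early rhombic lip) held Ttr, a choroid plexus gene, at 2446 CPM. In GABA.interneuron.progenitor the summed level of 5 GABA interneuron markers was 303 CPM, against 1884 CPM in Diff.GABA.interneuron. The summed granule, Purkinje and astroglia lists were at 1029, 1356 and 890 CPM in GABA.interneuron.progenitor. Sums of this size were not particular to it, as meningeal nuclei held 753, 1190 and 1171 CPM of the same lists. The types Progenitors and GABA.interneuron were highest for none of the marker lists, and GABA.interneuron held 518 CPM of the GABA interneuron markers. All types are called by their labels below.

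Marker RNA was also seen outside its type. The Purkinje gene Pcp2 was at 309 CPM in Purkinje neurons and at 19.4 to 75.2 CPM in the other 13 types, and Ttr was at 53.5 to 133 CPM outside RL.early. The deposited counts had not been corrected for free RNA, and the part of free RNA in each low level of a member was not tested. Pairs of PF/F libraries shared 30 to 60 cell barcodes.

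Upstream sequence is given for Cbln4 and for 3 RefSeq start sites of Nrxn3. The 250 bases upstream of each start are shown because Cbln4 was higher in differentiated granule neurons than in their progenitors and Nrxn3 was the neurexin with the widest range of levels, and because counts from transcript ends do not tell the Nrxn3 start sites apart. They are RefSeq promoter windows on GRCm38.p6, on the gene's strand, 5′ to 3′, and contain no annotated exon. Capitals mark the E-box CANNTG, a site class bound by basic helix-loop-helix factors, which reads the same on both strands.
Cbln4, chr2:172043467-172043716, minus strand: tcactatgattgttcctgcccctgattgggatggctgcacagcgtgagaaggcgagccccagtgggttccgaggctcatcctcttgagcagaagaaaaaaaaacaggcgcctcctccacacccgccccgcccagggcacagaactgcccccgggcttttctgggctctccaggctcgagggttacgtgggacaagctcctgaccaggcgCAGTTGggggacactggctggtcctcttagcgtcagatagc
Nrxn3 upstream start, chr12:88794254-88794503, plus strand: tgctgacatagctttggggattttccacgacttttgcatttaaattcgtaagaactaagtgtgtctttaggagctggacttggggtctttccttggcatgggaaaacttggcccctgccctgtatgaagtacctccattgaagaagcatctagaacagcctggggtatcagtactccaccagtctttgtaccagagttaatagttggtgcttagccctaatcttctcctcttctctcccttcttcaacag
Nrxn3 middle start, chr12:88953140-88953389, plus strand: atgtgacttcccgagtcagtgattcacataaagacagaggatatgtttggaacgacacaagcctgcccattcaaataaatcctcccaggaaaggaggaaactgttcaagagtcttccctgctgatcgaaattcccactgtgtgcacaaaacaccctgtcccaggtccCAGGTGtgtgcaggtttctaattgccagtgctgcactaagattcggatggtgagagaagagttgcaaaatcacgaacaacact
Nrxn3 downstream start, chr12:89812233-89812482, plus strand: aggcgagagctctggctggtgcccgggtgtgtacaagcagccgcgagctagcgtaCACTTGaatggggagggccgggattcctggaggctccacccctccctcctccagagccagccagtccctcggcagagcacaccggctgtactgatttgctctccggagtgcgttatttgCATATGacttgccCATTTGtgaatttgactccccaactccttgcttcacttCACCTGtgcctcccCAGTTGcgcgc

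The Cbln4 window held 1 E-box, and the Nrxn3 windows held 0, 1 and 5. At least 1 E-box stood in 66.2% of 32851 RefSeq promoter windows of this length, with a median of 1. The 3 Nrxn3 starts lay 71.6, 231 and 1090 kb inside the annotated gene, so the upstream one is not the annotated 5′ end of the gene. The window of the upstream start ends in a stretch rich in c and t followed by cag, letters like those at an intron end. Whether this window acts as a promoter was not tested. An E-box match is a description of the letters and not of a bound site.

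The genes differ greatly in size. In GENCODE vM21 (GRCm38), Cbln1 spans 4.21 kb at chr8:87468405-87472609 and Cbln4 spans 7.23 kb at chr2:172036233-172043466, both on the minus strand. Grid1 spans 763 kb at chr14:34820108-35583379 and Nrxn3 spans 1612 kb at chr12:88722876-90334935, both on the plus strand, and annotated exons cover 0.781% and 0.782% of them. By length these genes are almost all intron. Cbln2 (chr18:86711110-86718283, plus strand), Cbln3 (chr14:55878913-55884392, minus strand) and Nrxn2 (chr19:6418731-6544169, plus strand) span 7.17, 5.48 and 125 kb.

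Cbln1, the parallel fiber ligand, was high in the granule lineage. In differentiated granule neurons it was at 90.3 and 85.6 CPM in the WT libraries and at 89.8 and 94.2 CPM in the Tbx1+/- libraries, the highest level of the 12 types described. The genotypes overlapped there. Granule neuron progenitors (GNP) had 46.3 ± 4.03 CPM, lower in each of the 4 libraries. Differentiated granule neurons, the most numerous type, contributed 55.8% of the 10116 Cbln1 UMIs against 35.9% of all UMIs.

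The 10 other types described lay between 13.4 and 36.8 CPM of Cbln1, with a median of 31.3 CPM. The lowest was the Purkinje type, the cell that receives Cbln1, with 15.2 and 11.2 CPM in WT and 12.1 and 15.1 CPM in Tbx1+/-. Immune nuclei were at 36.1 ± 18.2 CPM, from 50 UMIs in all, and 1 library (Tbx1+/- replicate 1) was at 8.97 CPM against 42.6 to 48.3 CPM in the others. After each nucleus was thinned to 1000 UMIs, 9.02% of differentiated granule neurons (95% Clopper-Pearson interval 8.61 to 9.44%), 4.85% of GNP and 1.77% of Purkinje neurons had a Cbln1 UMI. Without thinning, the shares were 25.3, 12.3 and 9.47%. Intervals cover counting error only.

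**Figure D1:**
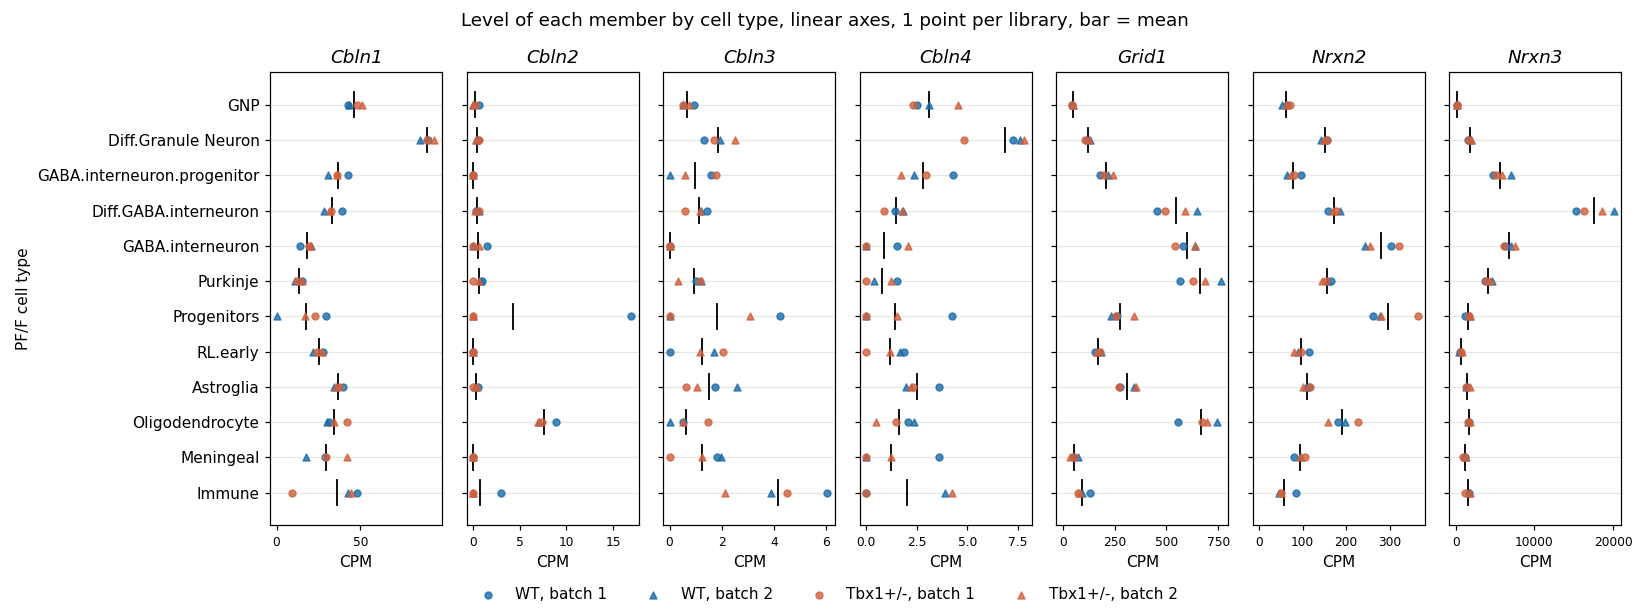
Level of each of the 7 genes in CPM (linear axes with separate scales) in the 12 cell types described, with 1 point per library, colour for genotype, shape for batch and a bar at the mean. Among these rows Cbln1 and Cbln4 are highest in differentiated granule neurons, Cbln2 in oligodendrocytes, and Nrxn3 in Diff.GABA.interneuron at 17557 CPM, while the genotypes overlap in these rows.

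The 3 genes whose levels over the 14 types were most like Cbln1 all lay beside it. They were the long noncoding RNA genes Gm2694 (Pearson r = 0.971 of log2(CPM + 1)), Gm27016 (r = 0.962) and 1700120C18Rik (r = 0.952), out of 12506 genes that reached 20 CPM in a type. The points share libraries and depth, and within single libraries r was 0.689 to 0.957, 0.732 to 0.911 and 0.645 to 0.819. Gm2694 runs on the opposite strand at chr8:87460469-87525554 and overlaps all of Cbln1. Gm27016 and 1700120C18Rik, on the Cbln1 strand, lie 3446 and 27440 bp from its body and inside the Gm2694 span. Whether the counting used strand is not given in the sources used here, so reads of Cbln1 and Gm2694 may be partly shared, whereas the other two do not overlap Cbln1.

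Gm2694 was at 457 and 451 CPM in differentiated granule neurons of WT and at 437 and 428 CPM in those of Tbx1+/-. In Purkinje neurons it was at 61.6, 24.7, 42.7 and 31.1 CPM in the same order of WT and then Tbx1+/- libraries. Its granule neuron libraries all stood far above its Purkinje libraries. From GNP to differentiated granule neurons Gm2694 was higher by 2.34 to 2.76 fold in the 4 libraries and Gm27016 by 2.46 to 2.67 fold.

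**Figure D2:**
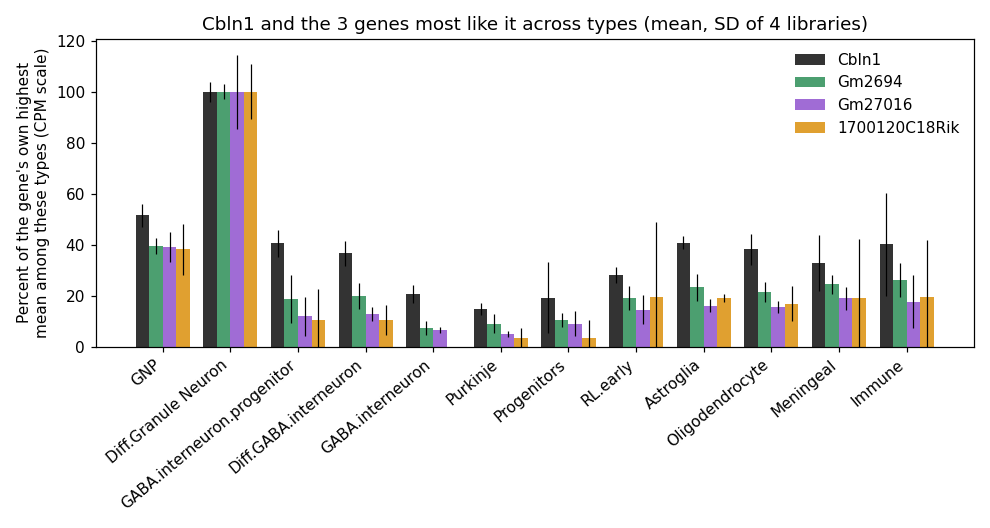
Levels of Cbln1 and of the 3 noncoding RNA genes beside it in the 12 types described, each as a percent of its own highest mean among these types on the CPM scale (bars, mean; lines, SD of 4 libraries). Of these types all 4 genes are highest in differentiated granule neurons, and the levels outside the granule lineage are a larger percent of the peak for Cbln1 than for Gm2694.

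Cbln4, a relative that also binds neurexins, had far fewer UMIs, 1041 in all. In differentiated granule neurons, the highest of the 12 types described, it was at 7.24 and 7.58 CPM in WT and at 4.84 and 7.78 CPM in Tbx1+/-. Tbx1+/- replicate 1 was the low library, and it too lay above the 2.32 to 4.53 CPM of GNP. Differentiated granule neurons held 41.4% of the Cbln4 UMIs against 35.9% of all UMIs. After thinning to 1000 UMIs, 0.563% of differentiated granule neurons (0.460 to 0.683%), 0.298% of GNP and 0.154% of Purkinje neurons (0.0187 to 0.555%) had a UMI, and without thinning 2.16, 0.840 and 0.539%.

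In the other types described Cbln4 was low, with 2.83 ± 1.08 CPM in GABA.interneuron.progenitor, 2.52 ± 0.715 CPM in astroglia and 0.786 ± 0.706 CPM in Purkinje neurons, the lowest of the 14 types. The genes most like it were Emc2 (r = 0.915), a subunit of the endoplasmic reticulum membrane complex, Gm27016 (r = 0.898) and Gm2694 (r = 0.896), with 0.565 to 0.715, 0.820 to 0.893 and 0.791 to 0.882 within single libraries. Emc2 itself varied little among the 12 types, from 44.0 CPM in Purkinje neurons to 63.0 CPM in meningeal nuclei.

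Cbln2, another secreted cerebellin, was rare, with 114 UMIs in all nuclei. Of these, 50 (43.9%) came from oligodendrocyte nuclei, which held 3.76% of all UMIs. Its level there was 8.86 and 7.10 CPM in WT and 7.41 and 6.94 CPM in Tbx1+/-, in each library above the 0.437 ± 0.158 CPM of differentiated granule neurons by 12.6 to 24.8 fold. Thinned to 1000 UMIs, 9 of 1624 oligodendrocyte nuclei had a UMI (0.554%, interval 0.254 to 1.05%), as did 8 of 18286 differentiated granule neurons (0.0437%), and without thinning the shares were 2.89 and 0.148%. No UMI was found in 2049 nuclei of GABA.interneuron.progenitor, which allows a share of nuclei with a UMI of up to 0.146% (3 counts in that number of nuclei), nor in meningeal or RL.early nuclei. In the type Progenitors all 4 UMIs came from WT replicate 1, so the mean of 4.23 CPM rests on 1 library. The genes most like Cbln2 were Gal3st1 (r = 0.922), which makes the myelin lipid sulfatide, Elfn1 (r = 0.898) and Tmem163 (r = 0.873), all highest in oligodendrocytes. Within single libraries r was lower, at 0.510 to 0.786, 0.545 to 0.826 and 0.472 to 0.771.

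Cbln3, which is known to need Cbln1 for its release, was near the floor everywhere, with 251 UMIs in all. Differentiated granule neurons held 119 of them, and their level was 1.32 and 1.93 CPM in WT and 1.70 and 2.49 CPM in Tbx1+/-. In GNP it was 0.673 ± 0.201 CPM, lower in each of the 4 libraries. The highest mean of the 12 types, 4.13 ± 1.62 CPM in immune nuclei, came from 5 UMIs and is too sparse to rank that type. Its most alike genes were Med28, Vps29 and Man1a, with r of 0.840, 0.781 and 0.765 over all libraries and as low as 0.114, -0.273 and 0.159 in single libraries.

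Grid1, the delta receptor gene, had its highest levels in cells that are not granule neurons. Oligodendrocytes were at 556 and 743 CPM in WT and at 670 and 695 CPM in Tbx1+/-. Purkinje neurons were at 566 and 762 CPM in WT and at 629 and 685 CPM in Tbx1+/-. The order of these types differed between libraries, each being higher in 2 of 4, and GABA.interneuron (600 ± 46.2 CPM) and Diff.GABA.interneuron (546 ± 87.1 CPM) overlapped with them. Astroglia followed at 311 ± 41.4 CPM, below the range of all 4 of those types. Within libraries, Purkinje neurons lay above Diff.GABA.interneuron in 4 of 4, by 1.16 to 1.28 fold. GNP were the lowest of the 14 types with 47.7 ± 3.71 CPM.

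Diff.GABA.interneuron exceeded the type labelled GABA.interneuron.progenitor, whose markers were mixed, by 2.46 to 2.98 fold of Grid1 in the 4 libraries. After thinning to 1000 UMIs, 45.8% of oligodendrocytes (43.4 to 48.3%), 44.9% of Purkinje neurons and 3.81% of GNP had a Grid1 UMI, and without thinning 83.7, 94.5 and 10.4%. The genes most like Grid1 were Thsd7a (r = 0.883), Mdga2 (r = 0.872), which codes for an adhesion protein that binds neuroligins, and Slc35f1 (r = 0.858), with 0.782 to 0.890 as the range of the 3 within single libraries.

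Nrxn2 varied least among the types. Progenitors were at 262 and 279 CPM in WT and at 365 and 280 CPM in Tbx1+/-, and GABA.interneuron was at 303 and 243 CPM in WT and at 322 and 254 CPM in Tbx1+/-. These ranges overlapped, and without the 8% of nuclei with most UMIs Progenitors fell to 192 CPM and GABA.interneuron ranked first with 289 CPM. Oligodendrocytes followed with 191 ± 29.0 CPM, and GNP (61.7 ± 7.95 CPM) and immune nuclei (57.8 ± 17.9 CPM) were lowest. The highest type was 2.03 times the median type, against 11.0 times for Nrxn3. The genes most like Nrxn2 were Gabra3 (r = 0.935), a GABA-A receptor subunit gene, Abcg4 (r = 0.934) and A330032B11Rik (r = 0.933). Within single libraries r was 0.865 to 0.946, 0.722 to 0.928 and 0.351 to 0.861.

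Nrxn3 was by contrast highest in types labelled as GABAergic interneurons and in Purkinje neurons. In Diff.GABA.interneuron it was at 15225 and 20052 CPM in WT and at 16316 and 18634 CPM in Tbx1+/-, which was 48.2% of its 556772 UMIs in 8.72% of all UMIs. GABA.interneuron (6772 ± 644 CPM), GABA.interneuron.progenitor (5690 ± 994 CPM) and Purkinje neurons (4144 ± 454 CPM) came next, the first 2 with overlapping ranges. Within each of the 4 libraries GABA.interneuron lay above GABA.interneuron.progenitor, by 1.01 to 1.33 fold. Diff.GABA.interneuron lay above GABA.interneuron by 2.42 to 2.84 fold in the 4 libraries, and Purkinje neurons above differentiated granule neurons (1791 ± 232 CPM) by 2.23 to 2.42 fold. GNP were the lowest with 205 and 217 CPM in WT and 171 and 188 CPM in Tbx1+/-.

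Nrxn3 UMIs were also counted at high levels in types outside neurons. Immune nuclei were at 1605 ± 268 CPM and astroglia at 1470 ± 243 CPM, both above GNP in each of the 4 libraries, by 7.12 to 9.70 fold for immune nuclei. The share of immune nuclei with a Nrxn3 UMI after thinning was 18.7% (14.9 to 23.0%) against 10.4% of GNP and 99.9% of Diff.GABA.interneuron, and without thinning the shares were 31.7, 23.6 and 99.97%. Of the 2127 Nrxn3 UMIs of immune nuclei, 207 came from 1 nucleus. Immune nuclei also held the most Pcp2 (75.2 CPM) and Calb1 (94.4 CPM) of the 13 types outside Purkinje neurons. The part of stray neuronal RNA or of doublets in their Nrxn3 level was not tested. The genes most like Nrxn3 were Cttnbp2 (r = 0.833), a dendritic spine cytoskeleton gene, Gm14204 (r = 0.831) and Gm27199 (r = 0.830), with 0.662 to 0.881 as the range of the 3 within single libraries.

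From GNP to differentiated granule neurons, the step in which these cells leave the cycle and grow axons, 5 of the 7 genes had at least 10 UMIs in both types of every library, and all 5 were higher after differentiation in each of the 4 libraries. Cbln1 was higher by 1.84 to 2.12 fold, Cbln4 by 1.72 to 2.91 fold and Grid1 by 2.46 to 2.62 fold. Nrxn2 was higher by 2.22 to 2.76 fold and Nrxn3 by 7.52 to 10.5 fold. Over 15144 genes fitted in both types the median log2 difference was -0.35, and the 5 genes stood at percentiles 91.7 (Cbln1), 93.0 (Cbln4), 94.3 (Grid1), 93.9 (Nrxn2) and 99.0 (Nrxn3). Cbln2 and Cbln3 had too few UMIs for this.

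The log2 difference between the granule types was smaller in Tbx1+/- than in WT by 0.14 for Cbln1, 0.50 for Cbln4, 0.15 for Nrxn2 and 0.04 for Grid1, and larger by 0.27 for Nrxn3. The exact two-sided permutation p was 0.333 for Cbln1, Cbln4 and Nrxn3, the smallest that 2 against 2 libraries allow, and 0.667 for Grid1 and Nrxn2. This permutation test cannot reach 0.05 here, and it does not use the batches. Any gene whose genotypes do not overlap reaches 0.333, and how many of all genes do so was not counted. Within batches 1 and 2, Tbx1+/- minus WT was -0.18 and -0.10 for Cbln1, -0.48 and -0.52 for Cbln4, -0.13 and -0.17 for Nrxn2 and 0.36 and 0.18 for Nrxn3, so the direction was the same in both. For Grid1 it was 0.02 and -0.10. The share of all genes with the same direction in both batches was not counted. Cbln4 in GNP rested on 83 UMIs in all. The sizes depended on single libraries. For Nrxn3 the difference was 0.12 without WT replicate 1 and 0.42 without WT replicate 2, and for Cbln1 it was -0.09 without WT replicate 1. For Nrxn2 it was -0.24 without WT replicate 1, -0.06 without WT replicate 2 and -0.08 without Tbx1+/- replicate 1. For Grid1 it lay between -0.07 and -0.01 with a library left out.

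**Figure D3:**
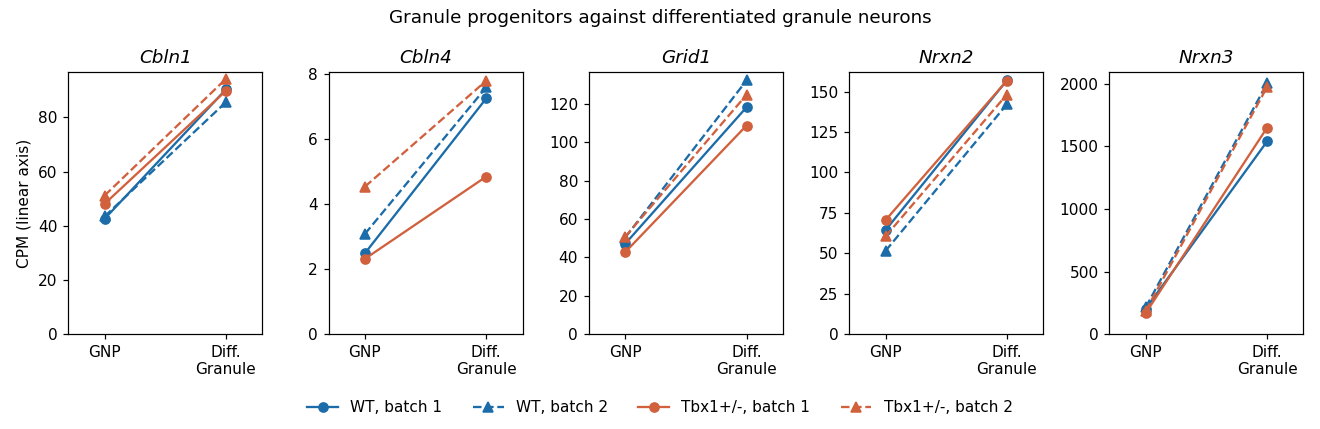
Levels of 5 genes in CPM (linear axes from 0) in granule neuron progenitors (GNP) and differentiated granule neurons (Diff. Granule), with 1 line per library. Every line rises, by 7.52 to 10.5 fold for Nrxn3 and by 1.72 to 2.91 fold for Cbln4, in both genotypes and batches.

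The study asked whether loss of 1 Tbx1 copy changed gene expression in PF/F cell types. For the 7 genes, none was called in any type by edgeR's quasi-likelihood test on sums per library (adjusted p under 0.05 and over 1.5 fold). Of 98 pairs of gene and type, 63 passed the filter on low counts, and the rest were pairs of Cbln2, Cbln3 and Cbln4 and 1 pair of Cbln1. Of all 161523 pairs of gene and type tested, 1 was called (0.000619%), which was in Purkinje neurons, where it made up 0.00778% of the genes tested. At an unadjusted p under 0.05, 1 of the 63 pairs was seen by edgeR and 0 by DESeq2, against 1.32% of all pairs by edgeR and 0.110% by DESeq2, so the count of members stood near the background. With the replicate number as a block in edgeR it was 5 of 63, a larger share than the 4.37% of all pairs. None of the 5 was called, and 3 were pairs of Nrxn3. With the block the log2 change of Nrxn3 was 0.50 ± 0.20 (SE) in RL.early and -0.21 ± 0.08 in GNP, each with the same direction in both batches. Cbln1 and Cbln3 had 1 pair each. The 1 pair without the block was Cbln3 in astroglia, with a log2 change of -1.26 ± 0.51 (SE) from 38 UMIs in all. Changes were positive in 36 pairs and negative in 27, with a median log2 change of 0.03.

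In the highest of the 12 types, the log2 change of Tbx1+/- over WT was small for the genes with a fit. It was 0.09 ± 0.13 (SE) for Cbln1 and -0.20 ± 0.27 for Cbln4 in differentiated granule neurons and -0.15 ± 0.41 for Cbln2 in oligodendrocytes. It was 0.09 ± 0.27 for Grid1 in oligodendrocytes, 0.24 ± 0.27 for Nrxn2 in Progenitors and -0.01 ± 0.59 for Nrxn3 in Diff.GABA.interneuron, and in this fit, which has no term for the replicate number, no value was larger than its SE. In 42 pairs with at least 50 UMIs in every library the log2 change lay between -0.21 and 0.49, with SEs of 0.13 to 0.59. In simulated data, 200 genes per type were given a change of 1 on the log2 scale. Of these, edgeR called 64% in GNP, 36.5% in oligodendrocytes and 22.5% in Purkinje neurons. DESeq2 called 44.5, 9.5 and 13% in the same order. Changes of this size were thus often missed, and smaller ones could be missed too. The rates cover all the changed genes, and none was taken at the levels of the genes followed here.

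**Figure D4:**
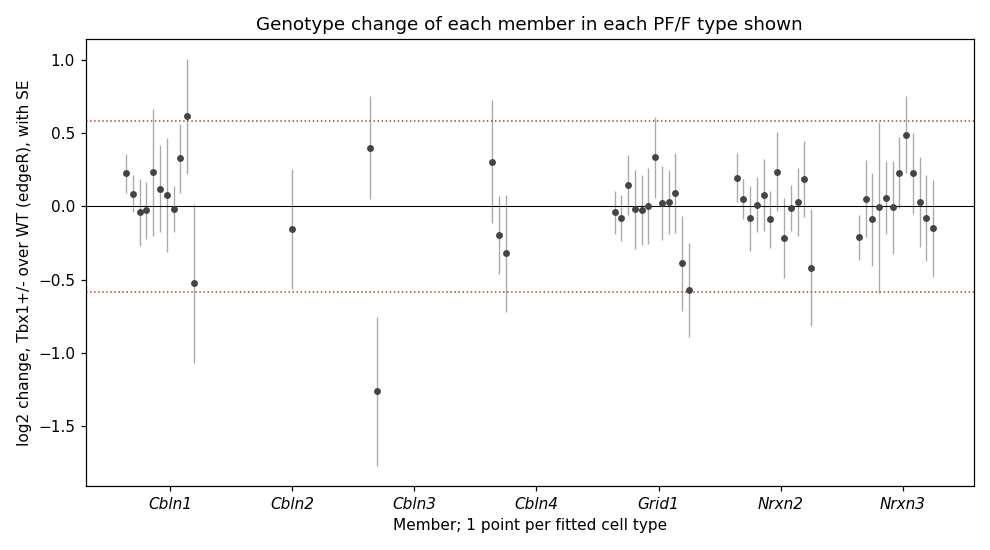
The log2 change of Tbx1+/- over WT for each gene, with 1 point for each of the 12 described types where it was fitted, its SE, and dotted lines at a change of 1.5 fold. The points lie around 0, and the farthest, Cbln3 in astroglia at -1.26, rests on 38 UMIs.

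Some levels differed between the batches in the same direction across types. For Grid1 both batch 2 libraries were above both batch 1 libraries in 9 of 14 types, and for Nrxn3 in 8 of 14, against 22.0% of all pairs of gene and type. For Cbln4 they were above in 4 of its 5 fitted types and below in 1, and its level in batch 2 was 1.27 times that in batch 1 in differentiated granule neurons and 1.59 times in GNP. Each of the other cerebellins had both batch 2 libraries above in at most 1 fitted type. For Nrxn2 both batch 2 libraries were below in 8 of 14 types, against 29.0% of all pairs. In Diff.GABA.interneuron Nrxn3 was 1.23 times as high in batch 2 as in batch 1. Batches were balanced over genotypes. The median ratio of SoupX-corrected to deposited UMIs per nucleus was 0.752 and 0.758 in batch 1 and 0.818 and 0.812 in batch 2, and its part in these differences was not tested.

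Partners of this system at the synapse were described from a list of 40 genes for neurexin, cerebellin and delta receptor ligands, receptors and scaffolds. None was called between genotypes by edgeR in the 478 pairs of gene and type that were fitted. At an unadjusted p under 0.05 there were 2 by edgeR, both in immune nuclei (Ptprs, log2 change 0.63, and Adgrl1, -0.93), and 0 by DESeq2. In immune nuclei 2.89% of all genes tested had such a p by edgeR. The median log2 change of the list was 0.03. Without WT replicate 1, Lrrtm4 in GABA.interneuron.progenitor was called, and without WT replicate 2, Nxph1 in meningeal nuclei was. Each of these fits had 1 WT library, which is assumed to vary like the Tbx1+/- libraries. The share of all genes called in these fits was not counted. For Lrrtm4 the WT libraries were at 227 and 49.8 CPM, on either side of the 116 and 122 CPM of Tbx1+/-. For Nxph1 they were at 23.4 and 143 CPM, against 48.7 and 193 CPM.

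Several partners differed widely between types. Nxph1, a secreted ligand of neurexins, was highest in Diff.GABA.interneuron, the type with most Nrxn3, with 1898 and 3073 CPM in WT and 2271 and 3157 CPM in Tbx1+/-, against 28.5 CPM in GNP. C1ql3, a secreted C1q protein, was highest in the same type (86.3 to 115 CPM over the libraries). Nxph1 was also at 997 CPM in oligodendrocytes, and at 33.3 CPM in Purkinje neurons, a type high in Nrxn3. C1ql1, a ligand of the receptor Adgrb3, was highest in oligodendrocytes with 77.1 ± 3.09 CPM, the type with most Cbln2. Mdga1, which binds neuroligins, went the other way and was highest in GNP with 475 ± 36.1 CPM. Shank2, a scaffold gene, was highest in Purkinje neurons (626 ± 32.0 CPM), and Clstn2 (604 ± 63.2 CPM), a calsyntenin, and Adgrl2 (607 ± 34.0 CPM), a latrophilin, in GABA.interneuron. Of the 40 genes, 9 were highest in GABA.interneuron, 7 in oligodendrocytes and 5 in differentiated granule neurons. The 7 include C1ql2 (1.86 ± 1.12 CPM) and Nxph2 (1.35 ± 0.986 CPM), which were too sparse to be fitted in any type. The share of all genes highest in each type was not counted, so no excess of partners in a type can be read from this.

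In the annotated PTB classes the receptor genes had their own pattern and the ligands were nearly absent. These classes are connective tissue, cartilage and bone cells. Each PTB library held another 5925 to 11891 barcodes without a label, which were not counted. The paper also described immune cells and neurons in the bone, and these are not among the classes. The mean of each cerebellin stayed at or below 2.33 CPM in all 15 annotated classes, and no single library exceeded 4.17 CPM. Grid1 was highest in the chondrocyte progenitor classes CP5 (322 and 383 CPM in WT, 296 and 319 CPM in Tbx1+/-) and CP6 (327 ± 21.4 CPM), similar in level to PF/F astroglia, and was at 8.91 CPM in osteoblasts. Nrxn3 was highest in CP6 with 1508 and 2096 CPM in WT and 1597 and 1842 CPM in Tbx1+/-, followed by the connective tissue class CT3 at 427 ± 21.0 CPM, and it was at 43.4 CPM in osteoblasts. Nrxn2 reached 35.8 ± 6.22 CPM in CP5, below its lowest PF/F type. The tissues were prepared differently, the bone being pulverized, so their levels were only set side by side.

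**Figure D5:**
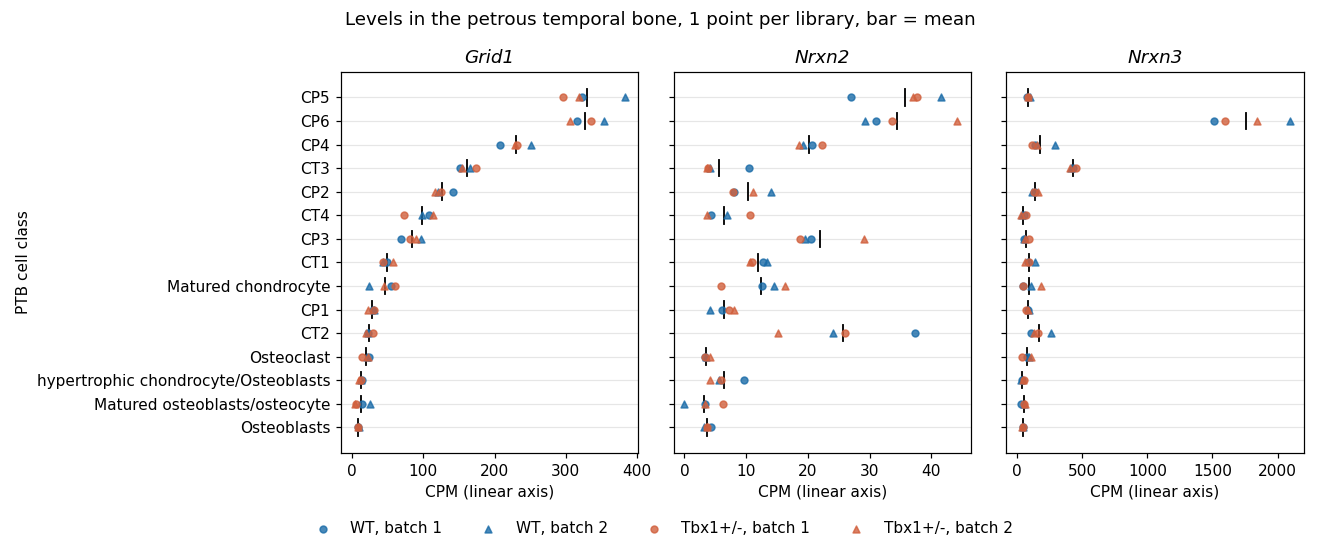
Levels of Grid1, Nrxn2 and Nrxn3 in CPM (linear axes) in 15 classes of the petrous temporal bone, ordered by Grid1, with 1 point per library and a bar at the mean. Grid1 is highest in CP5 and CP6, while Nrxn3 is highest in CP6 alone, at 1761 CPM against 427 CPM in the next class.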

How the data were processed

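Nuclear RNA of the PF/F and PTB was counted in droplets. The deposited counts are whole UMIs of each gene in each barcode. The authors ran Cell Ranger 7.0.0 in intron mode on mm10 to obtain them, and they come without their later SoupX correction. Nuclei and cell types were taken from the deposited annotation, which the authors built by label transfer and curation after excluding nuclei with few genes and outliers in depth. The expected counts in it, UMIs after the authors' SoupX correction, were used only for their ratio to the deposited UMIs. No doublet caller was run.

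The 7 genes and all lists were chosen with earlier results of these data known. UMIs were summed per library and type (Python 3.11.15, pandas 2.3.3, scipy 1.17.1). Genotypes were compared with edgeR 4.0.16 in R 4.3.3 (filterByExpr, TMM, quasi-likelihood, Benjamini-Hochberg adjustment over all genes of a type) without a batch term, and DESeq2 1.42.0 was an alternative. SEs were derived as log2 change over the root of the F statistic. The fit was tested on simulated data. Genes were named as the 7, the 3 most correlated with each over types, and of the 40 partners those called plus the 8 with the largest ratio of highest to median type among those with at least 20 CPM in a type. The batch comparison was chosen after values were seen. Of 32285 features, 32158 were found by identifier in GENCODE vM21 (GRCm38), and RefSeq windows were at hand for 3 of the 7 genes. The study describes 2 batches, and the replicate numbers were read as these, which is an inference. Levels, shares and genotype changes of 2 of the 14 tested types are not reported here. All 4 PF/F libraries were used, with 44713226 to 60627200 UMIs each.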

Additional observations from a re-analysis of the deposited data

How the results depend on the processing

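Under 10 alternatives (RLE factors, DESeq2, no filter, the replicate block, deeper nuclei, fewer nuclei with many UMIs, and leaving out each library) the number of members called between genotypes was 0. The main fit called 1 of 161523 pairs over all genes (0.000619%), so 0 members is near that share. Shares over all genes were not counted for the alternatives. With the replicate block, which pairs libraries by replicate number, 5 of 63 member and type pairs had an unadjusted p under 0.05, against 1 without it and 4.37% of all pairs with it, and the block changed no call. With it the log2 change was 0.09 ± 0.07 (SE) for Cbln1 and -0.21 ± 0.18 for Cbln4 in differentiated granule neurons, larger than their SEs, and the SE of Nrxn3 in Diff.GABA.interneuron was 0.13. Across 20756 genes, same-numbered WT and Tbx1+/- libraries deviated together from the genotype means, with r = 0.550, a hint from the data that the numbers pair the libraries. Of the partner list, 0 to 1 genes were called when a library was left out, 1 each without WT replicate 1 (Lrrtm4) and WT replicate 2 (Nxph1), each with a single WT library left in the fit.

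Small genotype changes turned direction, none of them called. For Cbln4 in differentiated granule neurons the log2 change ranged from -0.62 to 0.10 with a library left out. For Grid1 in oligodendrocytes it ranged from -0.13 to 0.35 with a library left out. For Nrxn3 in Diff.GABA.interneuron it became 0.0088 without a filter and 0.0071 with the replicate block, and ranged from -0.23 to 0.26 with a library left out. With nuclei of at least 2000 genes, the granule maturation difference between genotypes became 0.24 for Grid1 and -0.30 for Cbln1, and without the 8% of nuclei with most UMIs it became 0.11 for Nrxn3. The cause was not tested. The level of Nrxn3 in Diff.GABA.interneuron was 14888 CPM with nuclei of at least 2000 genes. Without the 8% of nuclei with most UMIs it was 19211 CPM, against 17557 CPM with all nuclei. Among the 12 types described, the highest was the same with deeper nuclei, with fewer nuclei with many UMIs and with each library left out for Cbln1, Cbln2, Cbln4 and Nrxn3 and not for Grid1 and Nrxn2. Cbln3 was too sparse for this. With 2 libraries per genotype and few UMIs, changes of Cbln2 and Cbln3 could be missed, and not only small ones. Detection at their counts was not simulated.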
